A study of Drosophila melanogaster with 18 samples.

Results

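The 6 genes described here encode cell adhesion and junction proteins, and each carried at least 1 variant in the deposited variant lists of 3 Drosophila melanogaster lines. They were chosen by their presence in those lists, under the symbols ds, bark, Dscam1, DIP-kappa, CG17716 (now tei) and Liprin-alpha, and are 6 of the 129 genes listed. That they are listed is therefore no finding, and their counts, quality scores and classes are given as a description. Their variants numbered 8 of 173 distinct variants. The list of sj266 held 2 of them among 38 variants, that of sj440 held 3 among 68 and that of sj461 held 3 among 67. None of the 8 was a repeated entry, and none was found in more than 1 line.

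The study called variants from polyadenylated RNA of whole embryos of 6 lines from a forward genetic screen for muscle morphogenesis, in 18 samples. The 3 lines analysed here were sj266 (2 samples), sj440 (3 samples) and sj461 (3 samples), and the labels give no genotype beyond the line. All were treated alike. Eggs were collected over 3 h at 25 °C and aged for 7 h, which the labels call stage 12, and homozygous embryos were hand-picked against a fluorescent green balancer chromosome. The design text calls the 2 replicates of a line technical. Each of these 3 lines has a single list here, without read depth, allele share, expression level or values per replicate, so no value below has a replicate error and no test between lines was made. All listed variants lay on chromosome 2 and were annotated as altering a protein or a splice site.

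Adhesion proteins hold cells together and let them recognise each other. Cadherins such as Dachsous bind a partner cadherin on the next cell and pass information on tissue polarity and growth, whereas immunoglobulin superfamily proteins such as Dscam1 and the DIP family mark neurons and other cells for recognition. Bark beetle works at tricellular junctions, the corners at which epithelial cells meet, and liprins are cytoplasmic scaffolds that bind receptor tyrosine phosphatases of the LAR type. In the fly embryo, adhesion between myoblasts takes part in their fusion into muscles, and adhesion between muscle and tendon cell in the attachment of muscles.

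The cadherin gene ds (dachsous, FBgn0284247) was changed at different sites in 2 lines. Dachsous is the ligand of the giant cadherin Fat in planar cell polarity and growth control. In sj440 the list held A2539T, an alanine to threonine change by the codon change Gct to Act (2L, position 644015, quality 228). The score is the variant caller's own, on a scale that the sources used here do not define. It was the highest of that list, shared by 5 of its 68 variants. In sj461 the list held G118R, a glycine to arginine change by Gga to Aga (2L, position 707415, quality 140), and 5 of the 67 variants of that list scored higher. On the gene's strand both were G to A changes, and both were annotated on transcript FBtr0078045. The pair lay near opposite ends of a gene of 74971 bp (2L, 640013 to 714983, minus strand). G118R was 7568 bp from the gene's 5′ end and A2539T was 4002 bp from its 3′ end. They were 63400 bp apart in the genome and 7263 bases apart in the transcript, so that 56137 bp of the interval were introns of that transcript. In the protein they were separated by 2421 residues.

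The substitutions in ds differed in kind. G118R replaces the smallest residue by a large charged one. With histidine counted as uncharged, it was the only change among the 5 missense changes of these genes that altered the side chain's formal charge. Its BLOSUM62 score was -2. BLOSUM62 scores how often a residue pair replaces each other in related proteins, with negative values for rare exchanges, and no other of the 5 changes was below 0. A2539T scored 0. On the Kyte-Doolittle scale, where higher means more hydrophobic, the residue's value fell by 4.1 in G118R and fell by 2.5 in A2539T. No effect on the protein was measured.

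The gene bark (bark beetle, FBgn0031571) encodes a large transmembrane protein of tricellular junctions that is needed for the maturation of septate junctions. In sj266 it carried V1973I by the codon change Gtt to Att (2L, position 3798149, quality 220), the highest score among the 38 variants of that list. The variant was 10982 bp from the 5′ end of a gene of 15560 bp (2L, 3787167 to 3802726, plus strand). Valine and isoleucine are both branched aliphatic residues, and this exchange had a BLOSUM62 score of 3, the highest of the 5. Isoleucine is higher than valine by 0.3 on the hydropathy scale. Of these 6 genes, bark thus combined the top score of its list with the mildest substitution by BLOSUM62.

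The immunoglobulin superfamily gene DIP-kappa (FBgn0051814) was also changed in 2 lines. DIP proteins are cell surface receptors that bind members of the Dpr family and act in the matching of neurons with their partners. In sj440 the list held H592Y by Cat to Tat (2L, position 13678599, quality 43.4), and in sj461 it held N420H by Aac to Cac (2L, position 13679115, quality 30.4). Both scores were below the median of their list, which was 52 in sj440 and 63 in sj461. The score of H592Y was shared by 3 variants of its list and that of N420H by 6, and 40 and 51 variants of the respective list scored higher. Unlike the sites in ds, these sites were close together. They were 516 bp apart both in the genome and in transcript FBtr0080580, with no intron bases between them, and 172 residues apart in the protein. Both lay in the last part of a gene of 40461 bp (2L, 13676860 to 13717320, minus strand), 38721 and 38205 bp from its 5′ end. N420H was in addition annotated as a splice region change, which places it next to an exon edge. The lists held 3 missense changes with this second annotation, all in sj461. The BLOSUM62 scores were 2 for H592Y and 1 for N420H.

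The immunoglobulin superfamily genes Dscam1 and tei were listed with splice acceptor variants. Dscam1 (FBgn0033159) is known for mutually exclusive exons that yield a very large number of receptor isoforms and allow neurites of the same neuron to recognise each other. In sj440 its variant was a G to A change on the gene's strand (2R, position 7329690, quality 52), 52209 bp from the 5′ end of a gene of 63976 bp (2R, 7317924 to 7381899, minus strand). The RefSeq table gives 75 transcripts for Dscam1, and none of the 5508 protein-coding genes of chromosome 2 had more. The list names 1 transcript, FBtr0089016, and how many of the isoforms use this acceptor was not tested. The gene tei (FBgn0000633, listed as CG17716) encodes a protein with immunoglobulin-like domains. In sj266 it carried an A to C change at an acceptor (2R, position 13719084, quality 56), 96040 bp from the 5′ end of a gene of 126324 bp (2R, 13623044 to 13749367, plus strand). At 18 variants scoring higher in a list of 38 and 33 in a list of 68, tei and Dscam1 had scores near the middle of their lists, whose medians were 56 and 52.

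Liprin-alpha (FBgn0046704), a scaffold of the presynaptic active zone that binds the receptor phosphatase Lar, was listed in sj461 with a splice donor variant. It was a G to C change on the gene's strand (2L, position 6726719, quality 100, transcript FBtr0079300). Among the 12 splice-site variants of that list 1 scored higher. The variant was 2816 bp from the 5′ end of a gene of 8864 bp (2L, 6723903 to 6732766, plus strand), the shortest of the 6 genes. The bases of donors and acceptors are intronic and so are missing from mature messenger RNA, and the lists do not say which reads gave the 3 splice-site calls of these genes. Whether splicing was altered was not tested.

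**Figure D1:**
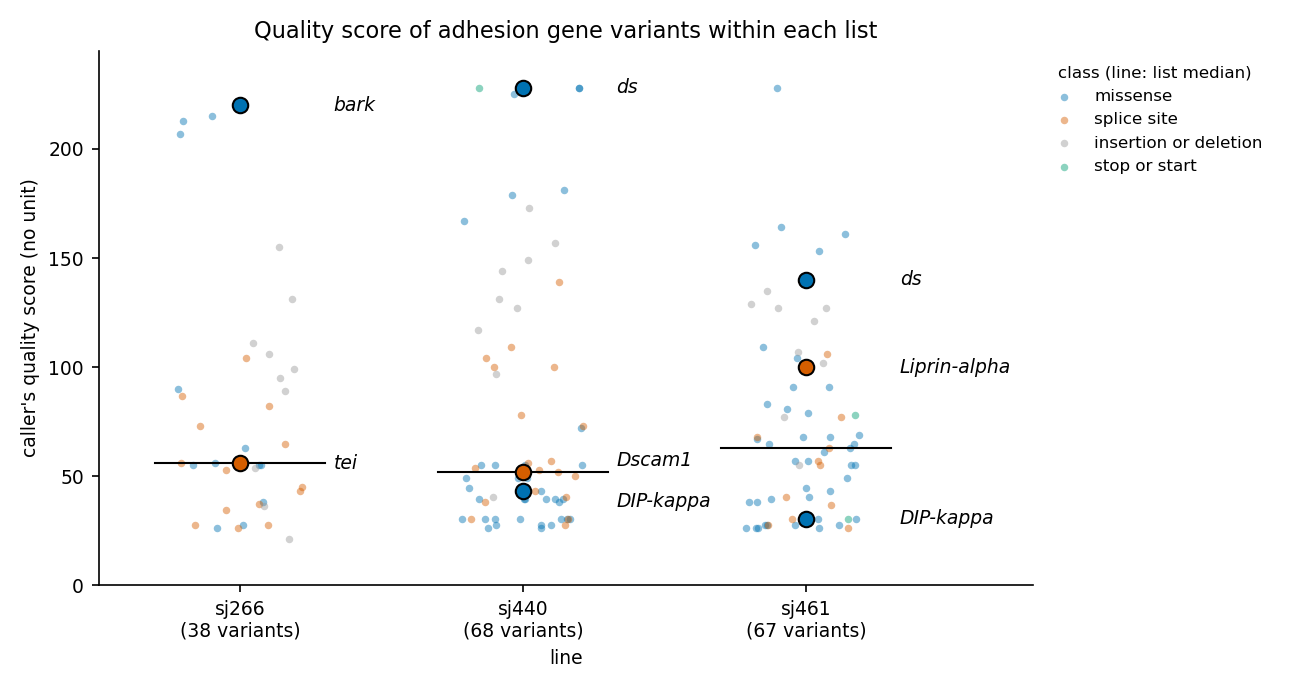
The caller's quality score (vertical axis, no unit) of every distinct variant in the lists of sj266, sj440 and sj461, coloured by class, with the adhesion gene variants as outlined points and each list's median as a line. The variants of bark (220), ds (228 and 140) and Liprin-alpha (100) lie well above the medians of 56, 52 and 63, and those of tei, Dscam1 and DIP-kappa lie at or below them.

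**Figure D2:**
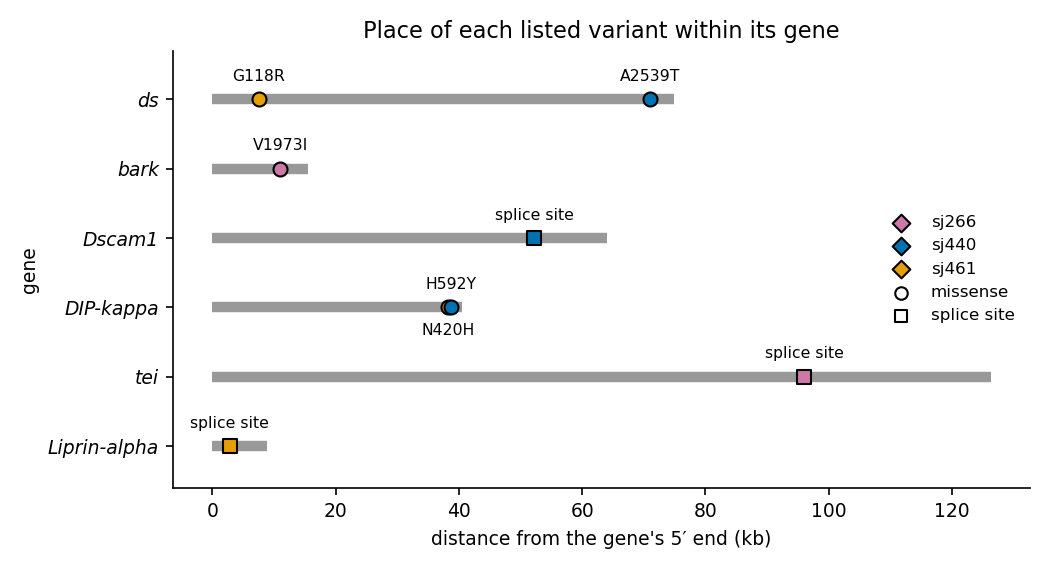
The place of the 8 variants within their genes, as the distance from the gene's 5′ end in kb. Grey bars are the RefSeq gene intervals, colours are lines, circles are missense changes and squares are splice-site variants. The variants of ds lie near opposite ends of the gene and those of DIP-kappa beside each other.

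For description, the 8 variants were divided at a score of 100. Those of ds (228 and 140), bark (220) and Liprin-alpha (100) were 100 or more, and those of tei (56), Dscam1 (52) and DIP-kappa (43.4 and 30.4) were 56 or less. Each line had at least 1 variant of either kind. Scores of 100 or more made up 4 of 8 variants here and 43 of 165 of the other listed variants, a limit chosen after the scores were seen. The median was 78 over the 8 variants and 55 over the other 165. It was 140 over the 5 missense changes and 56 over the 3 splice-site variants. As these genes were named with their scores in view, the higher median is not evidence about adhesion genes.

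The 8 variants were 5 missense changes and 3 splice-site variants, and none was an insertion or deletion, of which the lists held 28. The 3 splice-site variants were annotated as high impact, as were 47 of the other 165 listed variants. G:C pairs had become A:T pairs in 5 of 8, in ds (both), bark, Dscam1 and DIP-kappa (H592Y), against 38 of 137 other single-base changes. The remaining variants were an A to C change each in tei and DIP-kappa (N420H) and the G to C change of Liprin-alpha. The labels name no mutagen. All 5 missense changes altered the first base of the codon, as did 40 of the other 90. BLOSUM62 scores below 0 were found for 1 of the 5 and for 31 of the other 90. Each of the 8 variants was at least 143657 bp from the nearest other listed variant of its line. This distance is not given here for the other 165 listed variants, so it does not set the 8 apart. The nearest were Aldh-III, 143657 bp from the Dscam1 variant in sj440, and Tehao, 240160 bp from H592Y of DIP-kappa in the same line. For ds the nearest were CG4341 in sj440 (308932 bp) and robo2 in sj461 (687344 bp). For the other 4 variants the nearest were rk at 312529 bp (N420H of DIP-kappa), Ugt37B1 at 501410 bp (Liprin-alpha), Asx at 788171 bp (tei) and CG8814 at 921738 bp (bark).

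The genes ds and DIP-kappa belonged to 14 genes listed in more than 1 line. In 6 of the 14 an identical position was listed in 2 lines, and in the other 8, ds and DIP-kappa among them, the positions differed. Over these 8 genes, the closest sites of different lines were nearest each other in DIP-kappa (516 bp, 1.28% of the gene's length) and farthest apart in ds (63400 bp, 84.6%). The other 6 lay between, from 590 bp in CG15082 to 15685 bp in Msp300. In both adhesion genes the lines involved were sj440 and sj461. All 6 identical positions were shared by sj266 and sj440, and no gene listed in sj440 and sj461 had one. Differing positions are therefore not particular to the adhesion genes. The lists of sj266 and sj440 were deposited together and that of sj461 apart from them. Line and deposit thus cannot be told apart in these shared positions. Whether the changes within a gene have a common origin was not tested.

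The 6 genes were long. Their lengths ran from 8864 bp in Liprin-alpha to 126324 bp in tei, with a median of 52219 bp, against 7277 bp over the other 123 listed genes and 2045 bp over the 5508 protein-coding genes of chromosome 2. In that set 13 genes were longer than tei, 48 were longer than ds, 67 longer than Dscam1 and 165 longer than DIP-kappa, while 478 were longer than bark and 769 longer than Liprin-alpha. The share of genes with a listed variant was higher in longer classes. It was 51 of 4225 genes (1.21%) up to 5 kb, 45 of 917 (4.91%) from 5 to 20 kb, 18 of 255 (7.06%) from 20 to 50 kb and 15 of 111 (13.5%) over 50 kb. Gene length includes introns. Coding length and expression, which bear on what RNA reads can show, were not used here. Transcript numbers did not set the genes apart as a group, with 2 each for ds, DIP-kappa and tei, 3 for bark and 5 for Liprin-alpha beside the 75 of Dscam1, against a median of 2 on the chromosome.

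**Figure D3:**
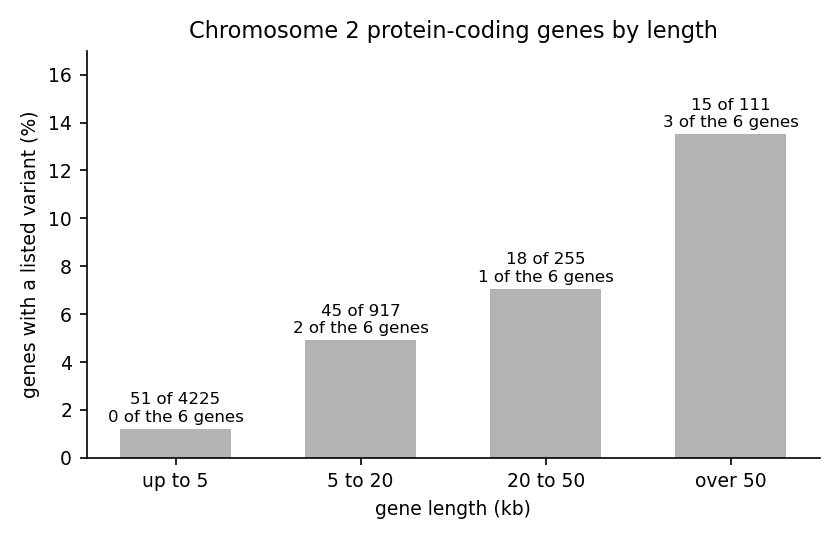
The share of chromosome 2 protein-coding genes with a listed variant in any of the 3 lines (vertical axis, percent) by gene length in kb, with the counts above each bar. The share runs from 1.21% in the shortest class to 13.5% in the longest, and 3 of the 6 adhesion genes (ds, Dscam1 and tei) fall in the class over 50 kb.

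Other adhesion genes were looked up in 7 lists of 142 genes, set with the 6 genes and robo2 already known to be listed. Of the list genes 140 matched the gene table and 58 lay on chromosome 2. Of all 5508 protein-coding genes of the chromosome, 129 (2.34%) had a listed variant in any line, with 35 (0.635%) in sj266, 55 (0.999%) in sj440 and 53 (0.962%) in sj461. Beside the 6 genes themselves, 5 of the remaining 52 adhesion genes were listed, and all 5 belonged to the immunoglobulin superfamily list, where they were 5 of 19. With the 3 members in it, that list had 8 of its 22 genes listed. The count fell to 2 at a quality of 50 or more and to 4 without splice-site variants. The 2 left at 50 were the members Dscam1 and tei, as the other 5 genes scored at most 49.4. The share of all chromosome 2 genes listed at that minimum is not given here. The 5 genes were beat-Ib and beat-IIIc in sj440 and beat-IIIa, bdl and robo2 in sj461, and none was in sj266. Cadherins and their partners beyond ds (0 of 8), tricellular and septate junction genes beyond bark (0 of 10), adherens junction and apical polarity genes (0 of 3), Liprin, LAR and synaptic adhesion genes beyond Liprin-alpha (0 of 4), myoblast adhesion genes (0 of 3) and integrin adhesion genes (0 of 5) had none. These lists hold too few genes of the chromosome to set a count of 0 apart from the share of 2.34%.

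**Figure D4:**
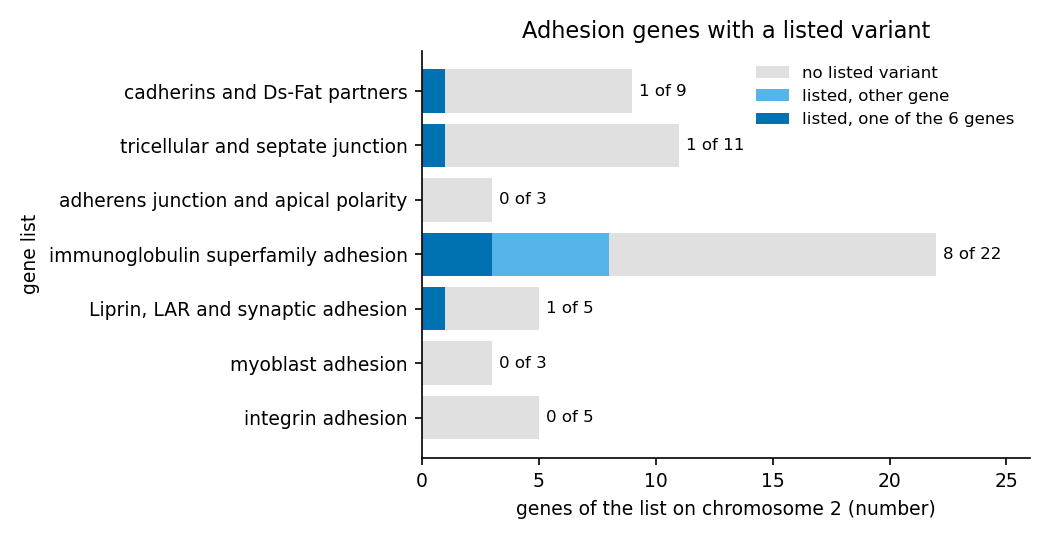
The number of genes of each adhesion list on chromosome 2 (horizontal axis), divided into the 6 genes described here, other genes with a listed variant and genes without one. The immunoglobulin superfamily list has 8 of 22 genes listed, 3 of them among the 6 genes, and each other list has at most 1. The immunoglobulin count is 2 at a quality of 50 or more, both among the 6 genes, and 4 without splice-site variants.

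The Beat proteins are secreted or membrane-anchored immunoglobulin proteins that act with Side receptors in motor axon guidance. The gene beat-Ib had A325G by gCg to gGg (2L, position 15905687, quality 49.4), beat-IIIa had A40V by gCg to gTg (2L, position 17133736, quality 40.4), and beat-IIIc had a splice donor change of G to A on the gene's strand (2L, position 17260349, quality 43.4). The gene bdl (borderless), which acts in axon targeting in the visual system, had A15E by gCg to gAg (2L, position 4324951, quality 26.4). The Slit receptor gene robo2 had a splice acceptor change of G to T (2L, position 1394759, quality 36.7). The 5 scores, from 26.4 to 49.4, were all below the median of their list, like those of DIP-kappa. All 3 missense changes replaced the middle base of an alanine codon gcg. The Dpr gene dpr1, of the family that DIP proteins bind, was listed in sj440 with V346A (2R, position 20748584, quality 39.4). It was in none of the lists and was noticed after its values were seen.

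The immunoglobulin genes of the chromosome were themselves long, with a median of 40274 bp over the 22. The 8 listed ones had a median of 49699 bp and the 14 without a listed variant 32913 bp. Over 50 kb 4 of 6 of them were listed, from 20 to 50 kb 3 of 11, from 5 to 20 kb 1 of 4 and up to 5 kb 0 of 1. The share of all chromosome 2 genes listed in the same length classes was 13.5%, 7.06%, 4.91% and 1.21%. The part of gene length in the count of this list was not tested, and 4 of the 8 genes were known to be listed when the list was made. These were tei and Dscam1 over 50 kb, and DIP-kappa and robo2 from 20 to 50 kb. The counts of these 2 classes were thus partly fixed by the choice of genes.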

How the data were processed

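For each of the 3 lines analysed here the authors deposited 1 variant list, with a position, bases, a quality score of the caller, an annotated consequence and other annotation fields, per the file headers. Build BDGP6, STAR 2.5.4b and cutadapt 2.4 are named in the submitters' processing notes, with no role. The caller, its filters and its score's scale are not given in the sources used. Each list was assigned to its line by its worksheet's name. Repeated rows of a position and its alleles were merged (202 rows, 173 variants). Positions count from 1. Gene intervals and symbols came from the RefSeq table of Release 6 plus ISO1 MT, the same assembly release. All 129 listed genes matched and all 173 variants lay inside their gene. No genome or protein sequence was used, so residues were not compared with a reference protein.

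Members, lists and summaries were chosen with earlier results of these data known. The genes named were all members, listed genes of the adhesion lists and each member variant's nearest listed variant; CG15082, Msp300 and dpr1 were named after their values were seen. Counts were compared without a test. The rank function was tested on simulated data and the class function on fixed examples. Tools were Biopython 1.88, matplotlib 3.10.9, pandas 2.3.3, Python 3.11.15, scipy 1.17.1 and numpy 2.4.6. Alternatives were a quality minimum of 30 or 50, unmerged rows, ranks within class or over all lists, PAM250, lists without splice-site variants and other denominators.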

Additional observations from a re-analysis of the deposited data

How the results depend on the processing

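The numbers of variants of the 6 genes per line stayed within 1.5 times under unmerged rows and a quality minimum of 30 or 50. At 50, both DIP-kappa variants were lost, which left 2 in sj440 and 2 in sj461. The median score of 78 was 140 over missense changes alone. Without splice-site variants the high-impact count fell from 3 to 0, since all 3 are at splice sites. The adhesion genes listed fell from 11 to 5 at a quality of 50 and to 6 without splice-site variants, and the immunoglobulin genes from 8 to 2 and to 4. All adhesion genes left at 50 were among the 6 genes, as the others scored at most 49.4. With list genes of every chromosome as the denominator, the share of adhesion genes listed was 7.86% in place of 19%. That of immunoglobulin genes was 21.6% in place of 36.4%, as the variant lists hold chromosome 2 alone. These shares count the 6 genes, which were chosen for being listed. Without them, 5 of 52 adhesion genes (9.62%) and 5 of 19 immunoglobulin genes (26.3%) of chromosome 2 were listed. Among these 5, robo2 was also known to be listed beforehand. The share of all protein-coding genes of the chromosome was 2.34%. With PAM250 in place of BLOSUM62, G118R was again the single change below 0. Ranked within its class, DIP-kappa in sj440 had 50% of variants below it in place of 36.8%, and Dscam1 35% in place of 48.5%. The planned match to RefSeq proteins was not run, as no protein sequence was used. No paired analysis was possible because each line has 1 list with no values per replicate. Leaving out a replicate was not possible for the same reason. Read depth is unknown.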
